A study of Callithrix jacchus with 4 samples.

Results

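The genes described here are 3 of the MHC class II antigen presentation pathway, *CD74*, *HLA-DPB1* and *CIITA*, out of 16383 genes listed for both cohorts of a single-nuclei RNA sequencing study of marmoset primary visual cortex (V1). They were chosen for their levels by annotated cell type, between injured and control cortex and between microglia and the other types, so those levels are given as a description, without a test. In the injured cohort, 3 adult marmosets had a focal ischemic stroke made on 1 side of V1 with endothelin-1 (ET-1), a peptide that constricts blood vessels. Tissue was taken at day 7 from the gray matter of the operculum. Each injured animal gave 1 library, named here injured 1, 2 and 3. The control cohort held V1 of 3 non-lesioned adult marmosets, pooled in 1 library, so the spread among control animals cannot be seen. Nuclei isolation, the sequencing instrument, the doublet filter and the depth also differed between cohorts, and their part in any difference from control cannot be told apart from that of injury.

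MHC class II molecules are pairs of an alpha and a beta chain that show peptides from ingested material to CD4 T cells. *HLA-DPB1* encodes a beta chain, *CD74* the invariant chain that fills the groove and escorts the pairs to the endosome, and *CIITA* the transactivator that switches on the genes of the pathway, often downstream of interferon gamma. In the brain, microglia and border macrophages are the usual carriers, with low levels at rest, while neurons are held to express next to none.

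The injured libraries held 7500, 12527 and 9510 nuclei and the control library 8610, with 35737777, 48722394, 42956736 and 22832703 UMIs (unique molecular identifiers, each standing for 1 captured transcript). Between 15 and 27 cell barcodes were shared by any pair of libraries. Annotated microglia made up 2823, 2692 and 2218 injured nuclei but only 129 control nuclei, which together held 124463 UMIs, so every control microglial value rests on few counts. *CD74* is also 1 of the 5 genes by which the study named microglia, which makes its presence there part of the label. A list of 12 other microglial genes summed to 7615, 6165 and 7383 CPM (UMIs per 1000000 of the same library and type) in injured microglia and to 9874 in control microglia (11 of the 12 listed), against 246 to 639 in the other injured types.

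The annotated injured microglia were not of a single kind. They held 3 large clusters of the study's own clustering, numbered 6, 21 and 16, and the last of these held 28.5%, 29.5% and 27.8% of them. In cluster 16, 8 T cell genes summed to 1732, 1341 and 1267 CPM, against 71.6 to 145 in cluster 6 and 85.3 to 112 in cluster 21. The 6 B cell genes summed there to 958, 767 and 770, against 195 to 270 and 143 to 156. Of the 12 microglial genes *CSF1R* and *P2RY12* averaged 31.3 and 25.5 CPM in cluster 16, against 220 and 136 in cluster 6 and 203 and 259 in cluster 21, whereas *PTPRC*, which lymphocytes share, averaged 1285 against 736 and 545, and *DOCK8* and *INPP5D* were close to their means in cluster 6. *GPR34* and *CX3CR1* averaged 15.5 and 4.08 in cluster 16, above cluster 6 and below cluster 21. Over all annotated microglia the T cell genes summed to 326, 284 and 271 CPM against 88.4 in control, the B cell genes to 284, 322 and 252 against 48.2, and 5 monocyte genes to 672, 436 and 603 against 32.1. The control sums rest on the 7, 4 and 3 of these genes listed for that cohort. Border macrophage genes summed to 2866, 1367 and 2911 against 1752, and dendritic cell genes to 73.8, 59.6 and 89.3 against 96.4. That control sum of dendritic cell genes was 12 UMIs of 1 gene, *CLEC10A*, of the 5 listed there. Of the T cell genes *CD3E*, *CD3G*, *CD8A* and *SKAP1* were at 0 in control microglia. The part of these cells in the members' levels was not tested, and each microglial level is given with and without cluster 16.

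In microglia the *CD74* level was 1007, 1416 and 1190 CPM in injured 1, 2 and 3 (mean 1204 ± 205, SD, n = 3), and 917, 1302 and 1050 without cluster 16. Control microglia gave a single *CD74* UMI, or 8.03 CPM, and the ratio of the pooled injured level to it was 145, with an exact 95% counting interval from 26.1 to 5745. All injured libraries lay above the control library.

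*HLA-DPB1* was nearly level among the injured animals in microglia, at 331, 325 and 320 CPM (mean 325 ± 5.45, SD, n = 3). Without cluster 16 it was 303, 313 and 291. None of the 129 control microglial nuclei held an *HLA-DPB1* UMI, which allows a share of nuclei with a UMI of up to 2.33% (3 of 129), with an exact 95% upper bound of 2.82%. The pooled injured level was 13.5 times a control level set at 3 UMIs. *CIITA* stood at 378, 380 and 329 CPM (mean 362 ± 29.2, SD, n = 3), and at 371, 379 and 314 without cluster 16. Control microglia again gave 1 UMI, a ratio of 45.3 with an interval from 8.13 to 1789. For all 3 members every injured library lay above the control library in microglia, as did 49.4% of the 13470 genes tested there. Since that contrast chose the members, nothing is read from it. Levels are not compared between genes, because capture differs from gene to gene.

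Endothelial nuclei ranked second for *CD74*. The injured levels were 643, 459 and 318 CPM (mean 473 ± 163, SD, n = 3), and the control library gave 1 UMI (ratio 90.3, interval 16.2 to 3569). The lowest endothelial library lay above the highest library of the oligodendrocytes that came next, so the ranges of microglia, endothelial nuclei and all other types were apart.

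Below them neighboring types in the order overlapped, though every oligodendrocyte library lay above every neuronal library. *CD74* in oligodendrocytes was 227, 196 and 166 CPM, with 3 control UMIs (ratio 85.0, interval 29.0 to 413). Oligodendrocyte precursor cells (OPCs) gave 211, 204 and 115, and no control UMI. Their pooled injured level was 10.6 times a control level set at 3 UMIs. In all of these types, too, every injured library was above the control library. Astrocytes gave 169, 143 and 96.6 with 1 control UMI (ratio 112, interval 20.0 to 4420). Inhibitory neurons gave 151, 113 and 90.6 with 4 control UMIs (ratio 87.6, interval 34.1 to 322). In excitatory neurons, where the control count was largest, the level was 161, 107 and 82.0 against 57 UMIs or 3.34 CPM, a ratio of 33.2 with an interval from 25.6 to 44.0. No neighboring pair in this part of the order, from oligodendrocytes to excitatory neurons, was separated by more than its range over animals. Within each of the 3 injured libraries OPCs lay above astrocytes and astrocytes above inhibitory neurons. Oligodendrocytes lay above OPCs, and inhibitory above excitatory neurons, in 2 of 3.

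*HLA-DPB1* outside microglia was again highest on average in endothelial nuclei. Endothelial nuclei gave 82.6, 51.3 and 39.3 CPM with 2 control UMIs (ratio 5.44, interval 1.5 to 45.1). OPCs gave 41.9, 60.7 and 26.2 with 1 control UMI (ratio 7.70, interval 1.37 to 306). These ranges overlapped. Astrocytes gave 43.4, 30.1 and 20.9, again with 1 control UMI (ratio 25.4, interval 4.51 to 1006). In oligodendrocytes it was 32.1, 32.4 and 18.4 (1 control UMI, ratio 36.4, interval 6.44 to 1444). Neurons formed the bottom of the order. Excitatory neurons gave 13.8, 10.2 and 8.73 with 15 control UMIs (ratio 12, interval 7.20 to 21.5), and inhibitory neurons 14.4, 10.3 and 7.43 with 3 control UMIs (ratio 10.5, interval 3.49 to 51.4). Every oligodendrocyte library lay above every excitatory neuron library.

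*CIITA* did not follow that order. After microglia the highest levels were in OPCs, at 79.4, 213 and 42.7 CPM (mean 112 ± 89.5, SD, n = 3), with no control UMI. Their pooled injured level was 6.48 times a control level set at 3 UMIs. Astrocytes followed with 61.7, 116 and 21.1 (1 control UMI, ratio 53.7, interval 9.59 to 2123). In both types injured 2 was highest and injured 3 lowest. Oligodendrocytes gave 48.7, 77.2 and 19.0 (1 control UMI, ratio 64.8, interval 11.5 to 2568). In endothelial nuclei the 49.3, 73.9 and 24.5 of the injured libraries met a control level of 24.5 from 5 UMIs (ratio 1.99, interval 0.846 to 6.14), and injured 3 fell just under it. This was the only type and member in which the cohorts overlapped. Of all genes tested, 47.8% were above control in every injured library in endothelial nuclei, 41.4% in OPCs, 36.0% in astrocytes, 32.9% in oligodendrocytes, 31.3% in excitatory and 30.8% in inhibitory neurons, and nothing is read from the members' count beside them. Inhibitory neurons gave 19.6, 33.9 and 6.93 with 10 control UMIs (ratio 6.74, interval 3.61 to 14.2) and excitatory neurons 15.3, 23.1 and 6.88 with 23 (ratio 11.9, interval 7.85 to 18.8). Below microglia the ranges of all neighbors in the *CIITA* order overlapped. Within each of the 3 injured libraries OPCs lay above astrocytes, oligodendrocytes above inhibitory neurons, and inhibitory above excitatory neurons. Astrocytes lay above endothelial nuclei, and endothelial nuclei above oligodendrocytes, in 2 of 3.

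**Figure D1:**
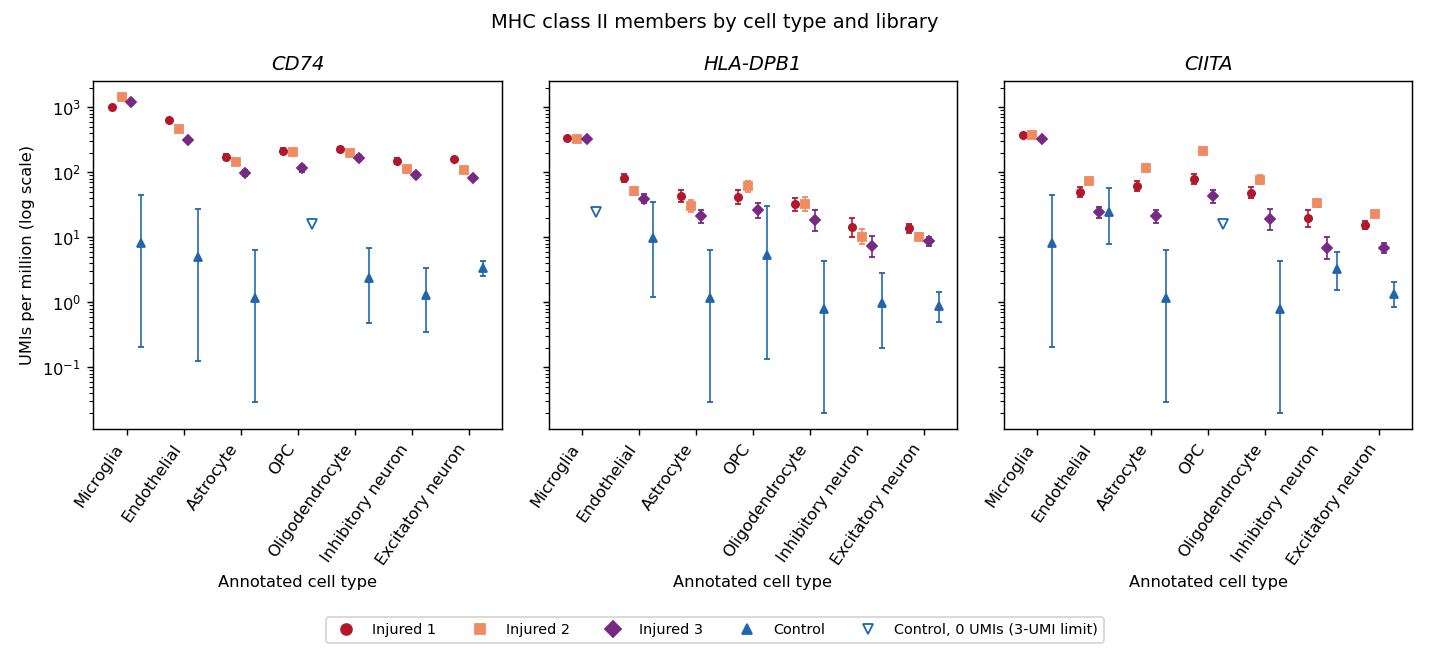
CPM (log scale) of each member by annotated cell type. Filled symbols are libraries, bars are exact 95% Poisson intervals that cover counting error only, and open triangles mark 3 UMIs where the control library had none. The injured microglial symbols stand above all others in each panel, and the control intervals span wide ranges because they rest on few UMIs.

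A share of nuclei with a UMI rises with depth, and median depths per nucleus were 4504.5, 3531 and 4229.5 UMIs after injury against 2117 in control. Every nucleus was therefore thinned to 1000 UMIs, leaving out 92 of the 129 control microglia and 146, 282 and 172 of the injured. At that depth *CD74* was seen in 55.3%, 61.1% and 54.4% of injured microglia, in 51.1%, 59.1% and 50.8% without cluster 16, and in 0 of 37 control microglia, for which the exact upper bound is 9.49%. The unthinned injured shares were 87.1%, 81.6% and 82.6%. *HLA-DPB1* was seen in 27.5%, 27.3% and 27.2% of injured microglia and *CIITA* in 28.8%, 28.2% and 24.9%. Microglia thus showed each member in a larger share of nuclei than any other injured type did.

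The shares of other types were set beside those of excitatory neurons. The level that RNA released from other cells reaches in a droplet was not measured. At 1000 UMIs *CD74* was seen in 14.1%, 11.1% and 8.88% of injured excitatory neurons, whose unthinned median depths were 7077, 5378 and 6358 UMIs, and in 0.330% of control excitatory neurons. The endothelial shares were 40.9%, 28.5% and 23.9%, with exact 95% intervals that did not meet those of the neurons in any injured library, but endothelial nuclei were shallower, with unthinned medians of 1671, 1817 and 1913.5 UMIs. The intervals were apart for OPCs (22.2%, 20.6% and 14.6%) and oligodendrocytes (20.5%, 17.7% and 17.1%). Their unthinned medians were also below those of excitatory neurons, at 5628, 2912 and 4981 UMIs in OPCs and 3064, 1950 and 2411 in oligodendrocytes. Astrocytes, at 16.1%, 14.4% and 10.3%, met the neuronal interval in injured 1 and 3, and inhibitory neurons, at 14.6%, 12% and 8.70%, met it in every injured library. The astrocytic share was above the neuronal one in each of the 3 animals. Intervals over nuclei cover counting error only, thinning does not make the share of released RNA equal between types, and whether *CD74* exceeded background in any type outside microglia was not tested.

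The other members gave a different split. *HLA-DPB1* was seen in 1.56%, 1.17% and 0.767% of injured excitatory neurons, and the endothelial (7.90%, 4.26% and 3.76%) and astrocytic (4.52%, 2.57% and 2.83%) intervals were clear of the neuronal ones in every library. OPCs and oligodendrocytes met the neuronal interval in at least 1 library. *CIITA* was seen in 2.05%, 2.34% and 0.567% of injured excitatory neurons. The OPC shares of 7.17%, 16.6% and 4.62% were clear of these, as were the endothelial 4.17%, 6.04% and 1.80%. In injured 1 the endothelial gap was slight, with a lower bound of 2.808% against a neuronal upper bound of 2.801%, from a single thinning. The astrocytic shares of 5.78% and 8.82% were clear of the neuronal interval in injured 1 and 2 but the 1.54% of injured 3 was not. Oligodendrocytes, at 3.90%, 5.77% and 1.26%, met the neuronal interval in injured 1 and 3. Inhibitory neurons met the neuronal interval in every library for either member. As for *CD74*, these intervals over nuclei cover counting error only. They describe values on which the members were chosen and are no test.

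**Figure D2:**
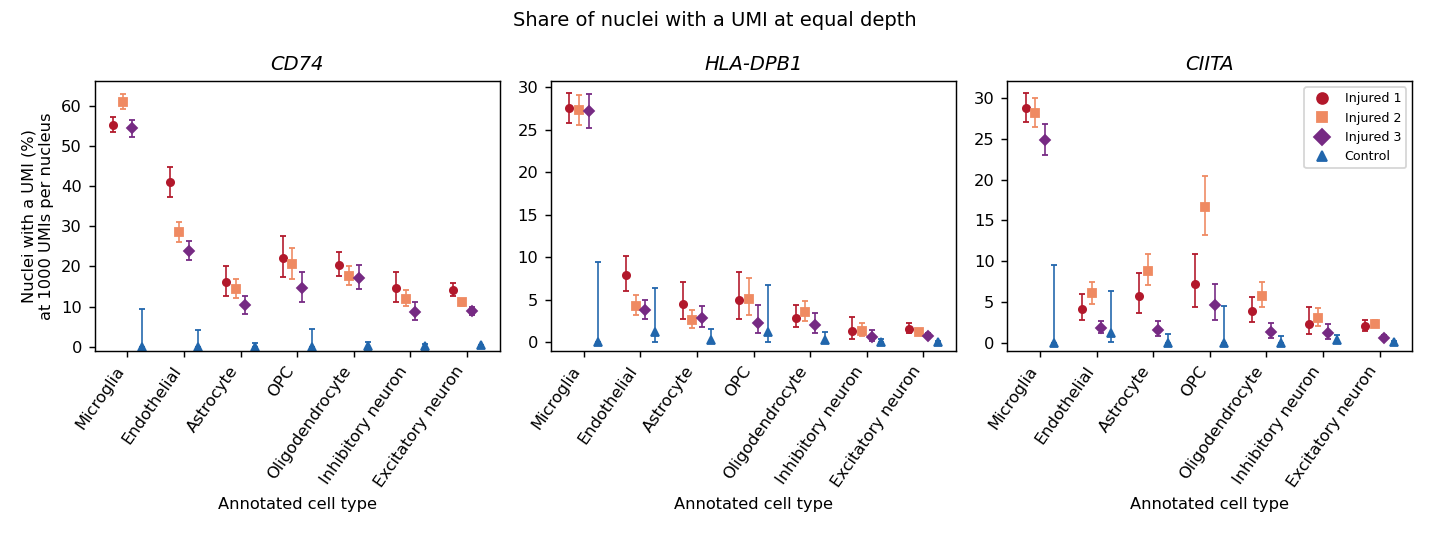
Percent of nuclei with at least 1 UMI of each member after thinning each nucleus to 1000 UMIs, by annotated cell type, with exact 95% binomial intervals. The y axes differ between panels. Injured microglia lie near 55 to 61% for *CD74* and 25 to 29% for the other members, and injured 2 stands out among OPCs for *CIITA*.

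Each member was also set against the 12 summed microglial genes in every type, with the ratio in microglia of the same library as 1. Released RNA was not measured, and its ratio of these genes is not known. For *CD74* the relative ratio was above 1 in 18 of 18 injured sums outside microglia and above 2 in 14. It was largest in endothelial nuclei, at 7.62, 4.38 and 4.08, and ran from 1.89 to 3.97 in excitatory neurons. For *HLA-DPB1* it was above 1 in 13 of 18, from 1.67 to 3.33 in OPCs but only 0.422 to 0.701 in inhibitory neurons. For *CIITA* it was above 1 in 15 of 18, with 3.39, 9.97 and 2.65 in OPCs and 3.38, 6.64 and 1.66 in astrocytes. The counts above 1 were 18, 13 and 15 with cluster 16 left out as well. The protease gene *CTSS*, taken for comparison, was above 1 in 13 of 18, from 1.32 to 1.98 in excitatory neurons, and above 2 in 1 of 18. How many of all genes lie above 1 was not counted, and nothing is read from these counts.

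The ratio depends on the microglial gene it is set against. For *CD74* in excitatory neurons it was above 1 against 11, 9 and 8 of the 12 genes taken singly, with values from 0.283 to 10.6. In endothelial nuclei it was above 1 against 12 of 12, 11 of 11 and 11 of 12 genes. The summed microglial genes stood at 349 CPM in control excitatory neurons (11 of the 12 listed) and at 246 to 307 in the injured. They are not confined to microglia. *INPP5D* alone gave 5585 UMIs over the control library, where control microglia held 1229 UMIs of the whole list. Whether the members' UMIs in neurons or the other types came from those nuclei was not tested.

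**Figure D3:**
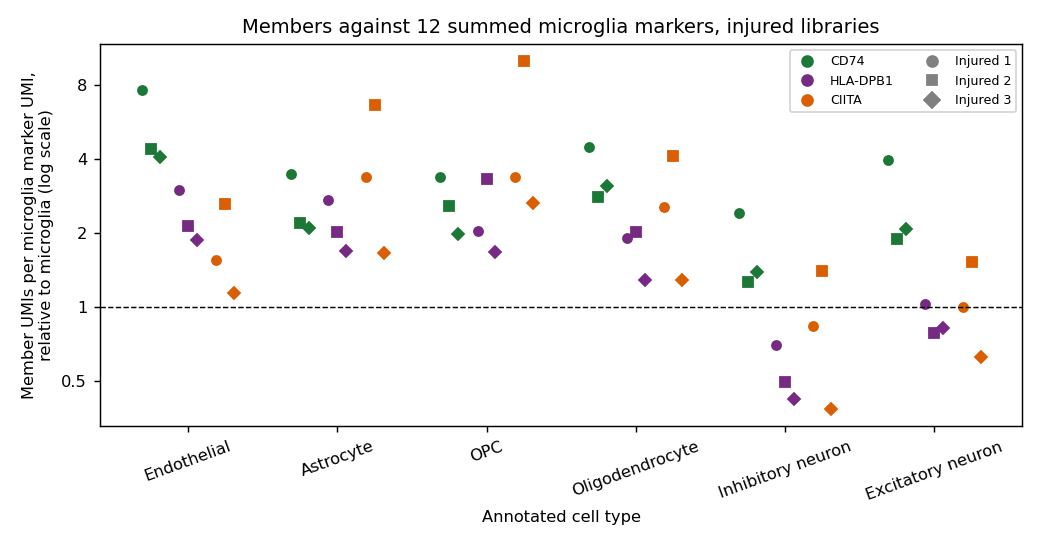
Member UMIs per UMI of 12 summed microglial genes in each injured library and type, relative to microglia of the same library (log scale, dashed line at 1). *CD74* lies above the line in every type, and *CIITA* in OPCs of injured 2 reaches 9.97.

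Among the 3 large clusters of injured microglia *CD74* was lowest in cluster 21. A further cluster, 27, held only 8 and 13 nuclei of injured 2 and 3, with *CD74* at 478 and 241 CPM from 7 UMIs each. In the large clusters the levels were 1069, 1558 and 1385 CPM in cluster 6, 631, 712 and 522 in cluster 21 and 1604, 1998 and 2127 in cluster 16, and the 3 clusters did not overlap. *HLA-DPB1* was 348, 372 and 385 in cluster 6, 218, 176 and 143 in cluster 21 and 517, 390 and 512 in cluster 16, again without overlap. *CIITA* was more even, at 412, 384 and 371, at 295, 373 and 225, and at 422, 385 and 429, and cluster 6 overlapped both of the others. Because the clusters were built on these same nuclei, the differences among them are a description. The 5 border macrophage genes summed to 3718, 1657 and 3853 CPM in cluster 6, 2325, 1375 and 2302 in cluster 21 and 431, 328 and 668 in cluster 16, and their part in the levels was not tested.

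Cluster 16 was itself mixed. At 1000 UMIs its nuclei with a B cell gene and no T cell gene held *CD74* at 2376, 2896 and 2529 CPM, those with a T cell gene and no B cell gene at 960, 942 and 950, and those with neither at 1626, 2689 and 2869. The few nuclei with both, 64, 38 and 42, held it at 1406, 1053 and 810. In every animal the nuclei with T cell genes alone lay below those with B cell genes alone and those with neither, and in injured 3 the nuclei with both lay lower still. For *CIITA* the nuclei with T cell genes alone stood at 182, 126 and 239 against 565, 464 and 682 with B cell genes alone and 667, 582 and 637 with neither. *HLA-DPB1* was 249, 199 and 233 against 735, 576 and 776 and 661, 537 and 690. B cells are known to carry MHC class II constitutively, but a B cell gene does not make a nucleus a B cell here. *BANK1*, 1 of the 6 genes, averaged 218 CPM in cluster 6 and 523 in cluster 16. At full depth 46.3%, 42.7% and 44.3% of cluster 6 nuclei held a B cell gene. In cluster 16, whose nuclei were shallower, 40.5%, 32.5% and 30.8% did.

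**Figure D4:**
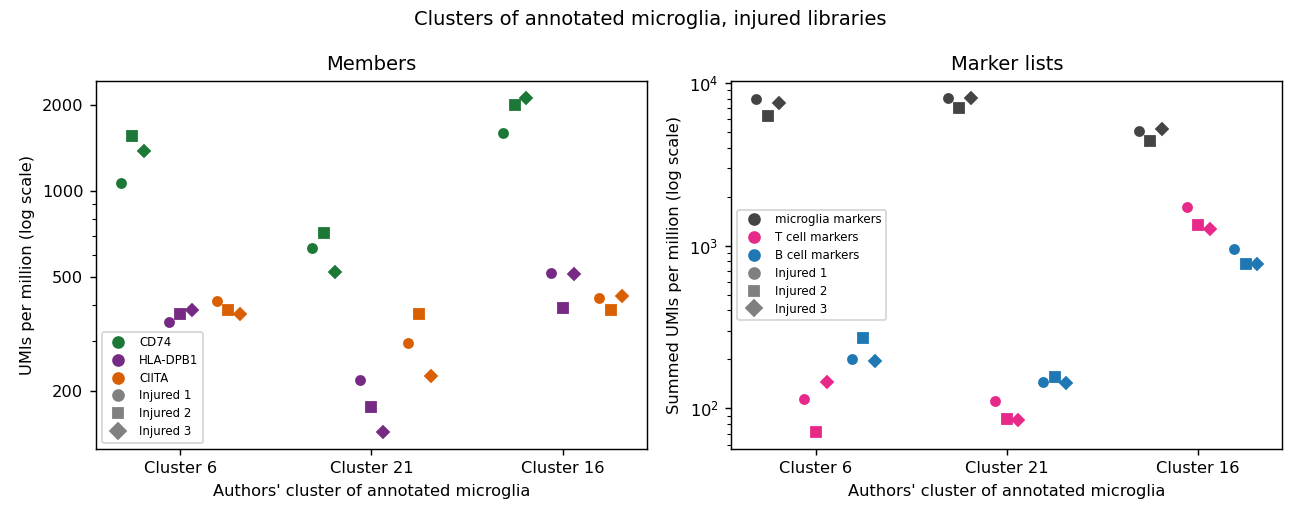
Left, CPM (log scale) of the members in the 3 large clusters of annotated injured microglia, with 1 symbol per animal. Right, the summed levels of the microglial, T cell and B cell genes in the same clusters. Cluster 16 has the highest *CD74* levels and the T and B cell sums near 1000 CPM.

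Single microglial nuclei rarely showed all the members at equal depth. At 1000 UMIs 7.66%, 6.80% and 6.74% of injured microglia held a UMI of each of the 3, while 27.1%, 23.3% and 30.5% held none. Without cluster 16 those with all 3 were 5.95%, 6.33% and 5.59%. No injured excitatory neuron, inhibitory neuron or oligodendrocyte held all 3. Since *HLA-DPB1* and *CIITA* were each seen in few of these nuclei, counts of 0 cannot speak to co-expression. At full depth the median injured microglial nucleus held 3, 2 and 2 *CD74* UMIs, and 8.75%, 9.66% and 11.4% of nuclei held 10 or more, up to 74, 46 and 62. At full depth 63.7%, 42.1% and 38.5% of injured excitatory neurons also held a *CD74* UMI.

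The order of the animals differed between members. Outside microglia *CD74* was highest in injured 1 and lowest in injured 3 in 6 of 6 types, whereas *CIITA* was highest in injured 2 and lowest in injured 3 in 6 of 6. *HLA-DPB1* took the order of *CD74* in 4 types and that of *CIITA* in 2. *IRF1*, a transcription factor of the interferon gamma response, took the order of *CIITA* in 6 of 6. How many of all genes took that order was not counted, and a link between *IRF1* and *CIITA* was not tested. The types of 1 library share its preparation and any released RNA, so they are not independent. In microglia the order of *CD74* was another, with injured 2 highest and injured 1 lowest.

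*CIITA* UMIs per 100 *CD74* UMIs set the members against each other inside a sum. They were 37.5, 26.9 and 27.6 in microglia, 37.7, 104 and 37.1 in OPCs and 36.5, 81.1 and 21.9 in astrocytes, but 7.67, 16.1 and 7.71 in endothelial nuclei and 9.46, 21.6 and 8.39 in excitatory neurons. Endothelial nuclei, which held the most *CD74* outside microglia, thus had the least *CIITA* for it in injured 1 and 2. *HLA-DPB1* per 100 *CD74* UMIs was less variable, at 32.9, 23.0 and 26.9 in microglia, 12.8, 11.2 and 12.4 in endothelial nuclei and 8.54, 9.50 and 10.6 in excitatory neurons. *IFNG*, which encodes interferon gamma, gave 133, 516 and 34 UMIs in injured 1, 2 and 3, or 3.72, 10.6 and 0.791 CPM over the whole library. Of these UMIs 84.2%, 80.6% and 88.2% were in cluster 16, the cluster with the T and B cell genes. They came from 51, 129 and 9 nuclei. Over whole libraries *IFNG* ranked the 3 animals as *CIITA* did outside microglia, within types it did so in 4 of 6, and its part in the *CIITA* levels was not tested. *IFNG* is not listed for the control cohort.

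The rest of the pathway was followed through 52 other gene symbols. Of these 12 were not found, and the rest matched 42 features of the injured cohort, 38 of them with an injured UMI. *CAJA-DRA*, the marmoset DR alpha chain, was the most informative chain besides the members. In microglia it stood at 451, 879 and 545 CPM with 1 control UMI, and in endothelial nuclei between 139 and 268, again with 1. The ranges of microglia, endothelial nuclei and the other types were apart, as for *CD74*. *HLA-DPA1*, the alpha partner of *HLA-DPB1*, reached 38.2, 66.8 and 35.5 in microglia with no control UMI. *HLA-DQA2*, a DQ alpha chain, stayed between 1.81 and 2.65 in injured microglia. *HLA-DMA*, which helps exchange the CD74 fragment for peptide, reached 55, 63.9 and 51.9, and a second feature that the name table also calls *HLA-DMA* (ENSCJAG00000021558) reached 150, 148 and 160. Reads could be split between this pair, so neither value is certain. *HLA-DOA*, a modulator of that exchange, stayed between 2.51 and 2.63 and is not listed for control. *HLA-DOB* and *RFXANK*, a subunit of the complex that recruits CIITA, had no injured UMI, and *RFX5*, its partner subunit, stood between 10.2 and 11.7 in injured microglia.

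These other genes were tested with edgeR's quasi-likelihood test on counts summed per library and cell type, Benjamini-Hochberg adjusted over all genes tested. A call needed an adjusted p below 0.01, a change of more than 0.25 on the natural log scale in either direction, and detection in 10% or more of the nuclei of 1 group. With 1 control library the spread comes from the injured animals and is assumed for control. All 3 members passed the expression filter in all 7 types, but as they were chosen on this contrast no call is given for them.

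In astrocytes genes of the interferon gamma axis were among those that rose. Of 28 tested genes 5 were called higher and none lower, where 1.12% of all 12445 genes were called higher. The count was 3 with nuclei thinned to 1000 UMIs and 3 with at most 2500 genes per nucleus. Among them *CAJA-DRA* rose by 5.79 (log2, SE 0.74, adjusted p = 0.00528) and *IRF1* by 5.15 (SE 0.73, adjusted p = 0.00700). *JAK2*, a kinase of the interferon gamma receptor, rose by 2.94 (SE 0.38, adjusted p = 0.00544), and *CD44*, a hyaluronan receptor that pairs with CD74 in signaling, by 4.60 (SE 0.35, adjusted p = 0.00157). The astrocytic *IRF1* levels of 213, 339 and 139 CPM stood against 6.94 in control. The median difference of the 28 genes was 1.21 where that of all genes was 0.05.

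In microglia 0 of 32 tested genes were called and 0.0% of all genes were. At an unadjusted p below 0.05 there were 2859 of the 13470 genes, and DESeq2 called 303, including 5 of the pathway. At an adjusted p below 0.05, where 2.58% of genes passed, 7 pathway genes were higher, among them *CAJA-DRA*, the co-stimulatory *CD86*, the lysosomal proteases *CTSB* and *CTSS*, the second *HLA-DMA* feature and *CD44*. Their log2 differences ran from 1.90 for *CTSS* (SE 0.25, adjusted p = 0.0382) to 6.54 for *CAJA-DRA* (SE 1.02, adjusted p = 0.0476). Without injured 2, 6 pathway genes were called. The median difference of the 32 genes was 1.79, and that of all genes 0.42.

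The remaining types gave few calls. In endothelial nuclei 2 of 30 genes were called higher (4.19% of all genes were), with *CAJA-DRA* among them, and the count was 1, 5 or 4 without injured 1, 2 or 3 and 0 with library size scaling. In oligodendrocytes 2 of 26 were called higher (0.619% of all genes), again with *CAJA-DRA*, and 1 without injured 1. In inhibitory neurons 3 of 28 were called higher (2.2% of all genes), among them *CAJA-DRA* and the T cell co-receptor *CD4*, and 7 without injured 2. Excitatory neurons gave 3 of 32 (2.61% of all genes), again with *CAJA-DRA* and *CD4*, and *IFNGR2*, a chain of the interferon gamma receptor, fell by 0.96 on the log2 scale (SE 0.14, adjusted p = 0.00608, 1.25% of all genes lower); without injured 1 the count was 1. OPCs gave 0 of 27 (0.061% of all genes higher), 6 without injured 2 and 4 without injured 3, with 2279 of 11476 genes at an unadjusted p below 0.05 and 2 pathway calls with DESeq2. *CAJA-DRA* was therefore called in each of the types other than microglia and OPCs, though not in endothelial nuclei with library size scaling. The share of all genes with a ratio to the summed microglial genes above 1 was not counted. For *CAJA-DRA* this ratio, with microglia as 1, was above 1 in 17 of 18 injured sums outside microglia. It ran from 0.720 to 1.91 in inhibitory neurons and from 3.15 to 7.07 in endothelial nuclei. Whether *CAJA-DRA* UMIs outside microglia came from those nuclei was not tested. At an adjusted p below 0.05 the share of all genes called was 7.16% in astrocytes, 13.6% in endothelial nuclei, 4.32% in oligodendrocytes, 11% in inhibitory and 12.1% in excitatory neurons and 1.19% in OPCs, and the pathway genes called were 7, 4, 4, 7, 9 and 1.

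The choice of members did not use how nuclei of a type differ among themselves. Injured microglia, thinned to 1000 UMIs, were split into 772, 680 and 509 nuclei with a *CIITA* UMI (CIITA+) and 1905, 1730 and 1537 without (CIITA-), and the 2 classes were compared within animals. *CD74* was 1352, 1729 and 1768 CPM in CIITA+ and 1012, 1308 and 1131 in CIITA- nuclei, higher in each of the 3 animals, and the log2 difference was 0.51 (SE 0.05, adjusted p = 8.54e-12). *HLA-DPB1* was 503, 412 and 515 against 303, 309 and 310, again higher in each, with a difference of 0.65 (SE 0.08, adjusted p = 6.35e-10). Both members were called (at 500 UMIs *HLA-DPB1* was not, adjusted p = 0.0108), in a comparison where 0.293% of 9914 genes were called higher and 0.0605% lower.

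Among 34 other pathway genes 3 were called higher in CIITA+ microglia and none lower, but 0 at 500 UMIs, 1 with DESeq2 and 7 with no thinning. These were *CAJA-DRA* (log2 0.63, SE 0.07, adjusted p = 2.81e-12), the second *HLA-DMA* feature (0.51, SE 0.11, adjusted p = 0.000817) and *CD86* (0.44, SE 0.09, adjusted p = 0.000321). Without injured 3 the count was 1. The largest called rises were *PLBD1*, a phospholipase of myeloid granules (0.94), ENSCJAG00000001638, a feature without a gene name (0.71), *HLA-DPB1*, *GAS7* and *CAJA-DRA* (both 0.63). The largest called falls were ENSCJAG00000009794 (-1.52), the protein kinase C gene *PRKCH* (-1.12), *TNIK* (-0.78), *SNTB1* (-0.61) and ENSCJAG00000008534 (-0.60). For the unnamed features that fell, slightly more CIITA+ than CIITA- nuclei held a UMI, 10.9% against 10.2% for ENSCJAG00000009794. *BANK1*, of the B cell list (0.47), and *VCAN*, of the monocyte list (0.41), were called higher as well, but neither marks those cells alone here. *BANK1* averaged 218 CPM in cluster 6, and *VCAN* alone made up the 1198 CPM of the monocyte list in control OPCs. Genes of T cells, B cells and dendritic cells detected in too few nuclei for a call also differed: *SKAP1* was lower (-1.09, adjusted p = 3.17e-08), as were *CD247* (-0.96, adjusted p = 2.84e-06) and *THEMIS* (-0.91, adjusted p = 2.79e-05), whereas *MS4A1* (1.13, adjusted p = 7.72e-05) and *PAX5* (1.10, adjusted p = 0.00279) of B cells and *FLT3* of dendritic cells (1.07, adjusted p = 0.00201) were higher. The part of these cells in the differences of the members was not tested beyond leaving out cluster 16.

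The fitted difference between the classes was smaller without cluster 16 and inside single clusters. Without cluster 16 it was 0.41 for *CD74* and 0.50 for *HLA-DPB1*, and both remained called (adjusted p = 6.34e-06 and 6.84e-05). Within cluster 6 alone it was 0.35 for *CD74* (adjusted p = 0.00174, under the fold limit) and 0.44 for *HLA-DPB1* (adjusted p = 0.0130), and neither was called. Within cluster 21 it was 0.10 (adjusted p = 0.986) and 0.22 (adjusted p = 0.958), and *CD74* was lower in CIITA+ nuclei of injured 2. These subsets hold fewer nuclei, and whether the differences differ between subsets was not tested.

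**Figure D5:**
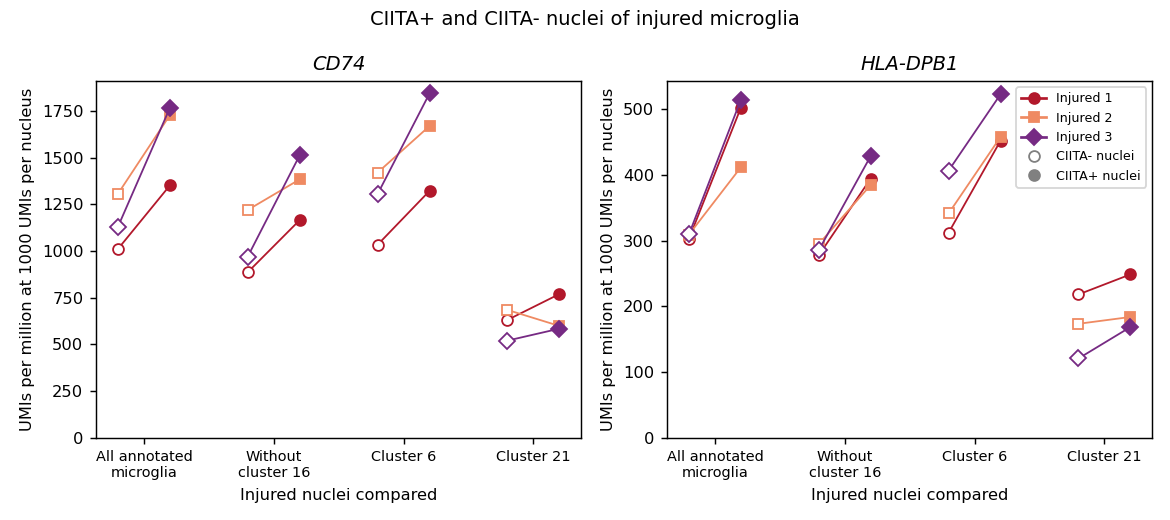
CPM of *CD74* and *HLA-DPB1* in CIITA- (open) and CIITA+ (filled) injured microglia at 1000 UMIs per nucleus, with each line joining the classes of 1 animal. All lines rise over all annotated microglia, without cluster 16 and in cluster 6, and that of *CD74* in injured 2 falls in cluster 21.

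Outside microglia nuclei were split by *CD74* in the same way. CD74+ endothelial nuclei numbered 285, 368 and 292, and 45 of 7769 genes (0.579%) differed from CD74- nuclei, 41 of them higher. *CAJA-DRA* was 442, 318 and 342 CPM in CD74+ against 136, 144 and 88.2 in CD74- nuclei, a log2 difference of 1.58 (SE 0.16, adjusted p = 4.30e-06), the only call among 18 pathway genes. Of the 12 microglial genes 7 were tested and 1 was called. This was *C1QB*, a complement gene, at 214, 97.8 and 168 against 77.9, 29.3 and 48.4 (1.67, SE 0.19, adjusted p = 2.34e-05), while *DOCK8* gave 0.36 (adjusted p = 0.445). *C1QC* (1.31), ENSCJAG00000008534 (1.48) and ENSCJAG00000001638 (1.28) rose too. *FSTL4* (-0.83), *PLXNA4* (-0.75), *CACNB4* (-0.69) and *CDK14* (-0.60) fell. Of the members *HLA-DPB1* was 119, 59.8 and 71.9 against 60.8, 37.9 and 32.3, higher in all 3 animals, but its difference of 0.94 (SE 0.24, adjusted p = 0.0376, 1.14e-04 to 0.519 over the alternatives) was not called. *CIITA* differed by 0.49 (SE 0.28, adjusted p = 0.419).

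The same split gave almost nothing in the other types. No gene of 4870 was called in astrocytes, 5853 in oligodendrocytes or 4945 in inhibitory neurons with edgeR or DESeq2, while 219, 283 and 211 had an unadjusted p below 0.05. In OPCs 2 of 3767 genes were called (0.0531%), ENSCJAG00000002565 (1.0) and *FRMD4A* (-0.93). In excitatory neurons 2 of 9513 were called (0.021%), *B2M*, the MHC class I light chain (0.38, SE 0.06, adjusted p = 2.29e-07), and *ADAMTS17* (0.47). DESeq2 called no gene in either type. *HLA-DPB1* differed by 1.20 (SE 0.48, adjusted p = 0.995) in CD74+ astrocytes and by 1.11 (SE 0.50, adjusted p = 0.736) in OPCs. There were 57 to 129 CD74+ nuclei per animal in these 2 types.

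Splitting by *CIITA*, a comparison added after the data were seen, pointed to other genes in endothelial nuclei. Only 29, 78 and 22 nuclei were CIITA+, and 6 of 7646 genes were called (0.0785%), all higher. They included the interferon-induced chemokines *CXCL11* (2.01, SE 0.32, adjusted p = 2.63e-06) and *CXCL10* (1.5, SE 0.29, adjusted p = 0.000402), and *IDO1*, a tryptophan-degrading enzyme under the same control (1.75, SE 0.38, adjusted p = 0.00773). *ABI3BP* (1.98) and the potassium channel gene *KCNK2* (1.38) were among them, and no member was. *CD74* was 1379, 462 and 455 CPM in CIITA+ against 690, 403 and 344 in CIITA- endothelial nuclei (adjusted p = 0.90). DESeq2 called none. In OPCs *CD74* was higher in CIITA+ nuclei of all 3 animals, 319 against 202 in injured 2, but the difference of 0.88 (SE 0.31, adjusted p = 0.604) did not pass, and 0 of 3844 genes were called, with 167 at an unadjusted p below 0.05 and none by DESeq2. Astrocytes (4691 genes, 193 at an unadjusted p below 0.05) and excitatory neurons (9024 genes, 364) gave no call with either tool.

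Likeness of pattern was described by Pearson's r of log2(CPM + 1) over the 21 sums of 3 injured libraries and 7 types, among 15797 genes. The sums of a library share its preparation and those of a type its cells. For *CD74* the closest genes were *CAJA-DRA* (0.984), ENSCJAG00000001638 (0.978), the complement genes *C1QC* and *C1QB* (both 0.976) and the microglial adaptor *TYROBP* (0.971). For *HLA-DPB1* they were the second *HLA-DMA* feature (0.979), ENSCJAG00000001638 (0.977), the lysosomal protease *CTSC* (0.976), ENSCJAG00000022617 (0.971) and *CAJA-DRA* (0.966). For *CIITA* they were other genes, *TRIM14* (0.975), *PARP15* (0.957), *IL15* (0.956), *TLDC2* (0.95) and ENSCJAG00000003364 (0.946). *CIITA* ranked 1029 in likeness to *CD74*, with r of 0.773, and 159 in likeness to *HLA-DPB1*, with 0.899. Leaving out injured 3 kept only 1 of the 5 closest to *CD74* and 2 of those of *CIITA*, leaving out injured 2 kept 2 of the latter, and leaving out injured 1 kept 3 of the 5 of *CD74* and of *HLA-DPB1*.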

How the data were processed

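The authors prepared nuclei from frozen V1 gray matter with the Chromium single-cell kit, counted UMIs with Cell Ranger 3.1.0 against calJac3 with Ensembl annotation, removed doublets with Scrublet (injured) or a gene-number filter (control), and clustered and annotated each cohort separately. The deposited values are raw UMI counts per gene and nucleus, with the authors' cell type and cluster labels. Groups came from the treatment label.

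Here counts were summed per library and annotated type, and given per 1000000 UMIs of that sum (CPM). Nuclei were thinned once, with a fixed seed, to 1000 UMIs for shares and for the CIITA and CD74 classes. Poisson, binomial and ratio intervals are exact at 95% and cover counting error only, and a count of 0 was set at a limit of 3 UMIs. Comparisons used edgeR 4.0.16 (TMM, filterByExpr, quasi-likelihood F test) in R 4.3.3, with DESeq2 1.42.0 as an alternative. In the class comparisons the animal was a block, since both classes come from each animal; the gene that defined the classes was left out of the test, and each class needed at least 20 nuclei per animal (10 for the CIITA classes outside microglia). In the class comparisons p-values measure the spread of the differences between classes within animals, not the spread among libraries. Against control they rest on the spread among the injured libraries, which is assumed for the control library. Pathway genes were named by rule: every chain, exchange and RFX gene, those called in microglia or astrocytes, the 5 largest called changes per class comparison and the 5 genes closest to each member. The counts cover the whole list, and 1 gene that the rule names is not reported here. The members, lists and rules were chosen with earlier results of these data known. No sequence or coordinate is given, as no genome of the build was used here. Alternatives were thinning to 500 or 1500 UMIs or none, other scalings, no count filter, an adjusted p below 0.05, nuclei with at most 2500 genes and leaving out each animal.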

Additional observations from a re-analysis of the deposited data

Results flagged for a closer look

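*CTSB*, a lysosomal protease that trims the invariant chain, lay below its control level in every injured library of endothelial nuclei (16.2 to 23.0 CPM against 29.4, from 6 control UMIs) and of oligodendrocytes (10.5 to 14.5 against 15.7, from 20), while every injured library was above control in microglia (291 to 374 against 32.1), astrocytes (25.6 to 39.7 against 23.1) and inhibitory neurons. The difference between these types was not tested.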

How the results depend on the processing

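In the class comparisons the animal is the replicate block. With no replicate block the CIITA+ microglial differences were 0.52 for *CD74* (adjusted p = 1.0) and 0.65 for *HLA-DPB1* (adjusted p = 0.679), neither called, 0 pathway genes were called there and 0 in CD74+ endothelial nuclei. Cluster 6 alone gave 0.35 and 0.44, cluster 21 alone 0.10 and 0.22, each with 0 pathway calls, and microglia without cluster 16 gave 1. At 500 UMIs *HLA-DPB1* gave 0.50 (adjusted p = 0.0108, no longer called) with 0 pathway calls. The pathway count was 7 with no thinning, 1 with DESeq2, and 1 to 3 leaving out an animal; in CD74+ endothelial nuclei it was 2 with no thinning.

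Against control, pathway calls at an adjusted p below 0.05 were 4 in endothelial nuclei, 9 in excitatory and 7 in inhibitory neurons, 7 in microglia, 1 in OPCs and 4 in oligodendrocytes. Thinned to 1000 UMIs they were 3 in astrocytes, 2 in excitatory neurons and 1 in oligodendrocytes, and with at most 2500 genes 3 in astrocytes and 1 in OPCs. Library size scaling gave 0 in endothelial nuclei, no filter 5 in inhibitory neurons, and DESeq2 5 in microglia and 2 in OPCs. Leaving out an animal gave 1 to 5 in endothelial nuclei and excitatory neurons, 3 to 7 in inhibitory neurons, 0 to 6 in microglia and OPCs, and 1 to 3 in oligodendrocytes.

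Of the microglial levels, *HLA-DPB1* averaged 355, 353 and 353 CPM thinned to 500, 1000 and 1500, 342 with TMM, 376 with at most 2500 genes and 302 without cluster 16, and *CIITA* 402 with at most 2500 genes. The mean share of microglia with *CD74* was 40.0% at 500 UMIs, 66.8% at 1500, 83.8% unthinned and 60.9% with at most 2500 genes. For *HLA-DPB1* it was 15.5%, 36.7%, 54.7%, 28.9% and, without cluster 16, 25.7%, and for *CIITA* 15.0%, 37.3% and 52.9% at 500, 1500 and full depth. Of the 5 closest genes, leaving out an animal kept 1 to 4 for *CD74*, 3 to 4 for *HLA-DPB1* and 2 to 5 for *CIITA*.

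Signs changed only in differences that were never called: by CD74, *HLA-DPB1* in excitatory neurons (0.050 unthinned, 0.14 at 1500 UMIs, -0.34 to 0.0081 leaving out an animal), *CIITA* there (-0.12 at 1500), and in oligodendrocytes *HLA-DPB1* (0.21 and 0.31) and *CIITA* (0.38 and 0.025) unthinned and at 1500; by CIITA in excitatory neurons, *CD74* (-0.12 at 1500) and *HLA-DPB1* (0.024 by library size, 0.35 unthinned, 1.24 at 1500, 0.45 and 0.041 without injured 1 or 3). The cause of these changes was not tested. The 129 control microglia limit every microglial value against control, and the single pooled control library limits those of all types.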

Other observations

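*IFNG*, a listed gene singled out here after its values were seen, was lower in CIITA+ than in CIITA- injured microglia (log2 difference -2.94, SE 0.40, edgeR adjusted p = 7.52e-08). It was not called, since only 0.102% and 0.947% of the nuclei held a UMI. The classes span all clusters, and *IFNG* averaged 151 CPM in cluster 16 against 1.16 in cluster 6 and 1.39 in cluster 21. The part of cluster 16 in this difference was not tested.

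Nuclei of injured microglia with many *CD74* UMIs were found outside cluster 16 as well: without it, 10.6% of the nuclei of injured 2 held 10 or more, and the highest counts were 74, 46 and 59 in injured 1, 2 and 3.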
